A study of Mus musculus with 6 samples.

Results

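The Hox genes of the mouse prostate were examined by lobe and by genotype in bulk RNA-seq. The 38 genes examined are among the rows of the deposited expression table whose symbol is HOX followed by a cluster letter and a number, out of 24908 genes in all, a rule that uses symbols and not levels. Of these, 21 had a mean of at least 1 FPKM (fragments per unit of transcript length, scaled to library depth) over the libraries and entered the comparisons, as did 12361 genes of the whole table. Tissue came from 2 male FVB mice at 12 weeks of age. The mouse labelled MYC was heterozygous for the Hi-MYC transgene, human c-MYC driven by the prostate-restricted ARR2Pb promoter in the epithelium, and the mouse labelled WT was a littermate without it. Both were fed a purified diet. The ventral (VP), dorsolateral (DLP) and anterior (AP) prostate of each mouse were dissociated to cell suspensions, and each gave 1 library, 6 in all. The 3 lobes of a genotype share their animal, so that genotype and mouse cannot be told apart and no test between genotypes was made. A difference between lobes seen in both mice was therefore observed in 2 animals, while a difference between genotypes was observed in a single pair of animals.

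Hox genes encode homeodomain transcription factors and stand in 4 clusters, HoxA to HoxD, within which a gene's place matches the place along the body axis where it is active in the embryo. Genes at the same place in different clusters form a paralog group. The highest-numbered groups, here called posterior (9 to 13), pattern the hindgut, the genital tract and the tips of the limbs. The prostate buds from the urogenital sinus under androgen, and HOXA13, HOXD13 and HOXB13 act in the budding and branching of its lobes. HOXB13 remains on in adult luminal cells, where it binds DNA with the androgen receptor. Hox proteins of most groups bind DNA together with the TALE homeodomain proteins PBX and MEIS.

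The promoter windows of 3 HoxD genes are printed because these genes were higher in AP than in VP in both mice, and because their windows hold the letters CACGTG, the E-box bound by MYC with its partner MAX. Each window runs from 250 bases before a RefSeq transcript start to 50 bases after it, on the plus strand of GRCm38.p6 (mm10), and the E-box is in capitals. The HOXD13 window lies at chr2:74667975-74668274, the HOXD11 window at chr2:74682073-74682372 and the HOXD10 window at chr2:74691641-74691940. The HOXD13 window is at the start of the annotated gene (chr2:74668225-74671603), whereas the HOXD11 and HOXD10 windows lie inside their annotated genes (chr2:74679558-74687016 and chr2:74684273-74695106), at internal transcript starts.
HOXD13: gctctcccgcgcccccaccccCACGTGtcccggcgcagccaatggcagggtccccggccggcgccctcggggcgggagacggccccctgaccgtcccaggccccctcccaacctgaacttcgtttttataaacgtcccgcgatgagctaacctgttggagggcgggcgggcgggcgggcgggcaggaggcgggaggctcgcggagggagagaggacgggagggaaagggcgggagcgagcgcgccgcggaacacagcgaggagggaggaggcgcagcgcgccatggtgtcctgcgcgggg
HOXD11: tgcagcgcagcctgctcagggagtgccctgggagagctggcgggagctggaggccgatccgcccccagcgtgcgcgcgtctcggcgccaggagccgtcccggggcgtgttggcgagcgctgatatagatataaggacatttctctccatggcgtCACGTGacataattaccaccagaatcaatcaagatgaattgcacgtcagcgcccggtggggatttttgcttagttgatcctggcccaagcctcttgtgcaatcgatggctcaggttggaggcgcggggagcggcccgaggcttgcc
HOXD10: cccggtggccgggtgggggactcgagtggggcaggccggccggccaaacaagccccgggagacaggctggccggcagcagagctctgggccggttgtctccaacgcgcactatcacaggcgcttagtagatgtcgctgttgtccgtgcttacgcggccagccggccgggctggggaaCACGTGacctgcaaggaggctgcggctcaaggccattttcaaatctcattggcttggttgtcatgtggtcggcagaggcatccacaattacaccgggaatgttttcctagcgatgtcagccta
The E-box began 229 bases before the transcript start in HOXD13, 96 in HOXD11 and 73 in HOXD10. Windows were available for 22 of the 38 genes, 24 windows in all, since HOXA10 and HOXD11 have a pair each. They covered 9 of 9 HoxD genes and 9 of 10 HoxA genes, but 3 of 10 HoxB genes (HOXB1, HOXB4 and HOXB8) and 1 of 9 HoxC genes (HOXC4). Searched on both strands, CACGTG stood in 5 of the 24 windows, 1 each of HOXD1, HOXD4, HOXD10, HOXD11 and HOXD13, and in 7.15% of 32851 windows of all genes. The other HOXD11 window, at the start of the gene (chr2:74679308-74679607), did not contain it, nor did the HOXD8 window at chr2:74704365-74704664. The letters AGAACA, to which the androgen receptor binds, stood in windows of HOXA9 and HOXA11 and in 19% of all windows. The posterior Hox motif TTTATNG stood in windows of HOXB8 and HOXD4 and in 10.9% of all windows. These are matches of letters, and binding was not measured in the libraries used here.

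The libraries held between 25.35 M (WT AP) and 49.65 M (MYC AP) mapped reads, as recovered from the steps of the lowest FPKM values. In WT VP, WT DLP and WT AP, the gene listed as MYC was at 226.4, 200.6 and 230.0 FPKM. In MYC VP, MYC DLP and MYC AP it was at 1696, 586.1 and 230.9 FPKM, so that AP of the 2 mice held like levels of this entry. Reads were mapped to the mouse build mm10, and how far the entry holds reads of the human transgene was not tested. Luminal markers, summed over 7 genes, lay between 3021 and 6237 FPKM in the 6 libraries and none was at 0. The cell makeup differed between libraries. The sum of 12 fibroblast markers was 457.4 FPKM in MYC VP and between 1421 and 2953 FPKM in the other libraries. Secretory genes of the seminal vesicle, which lies against AP, summed to 523.8 FPKM in MYC AP, 11.3 FPKM in MYC DLP and at most 0.186 FPKM elsewhere. In bulk tissue, fewer cells of a type and less RNA per cell cannot be told apart.

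Summed over the 38 genes, Hox transcripts reached 233.9 FPKM in WT VP, 211.8 in WT DLP and 167.3 in WT AP, and 190.2, 144.2 and 173.6 FPKM in MYC VP, MYC DLP and MYC AP. HOXB13 alone made up 74.5% of this sum in WT VP, 50.6% in WT DLP and 26.5% in WT AP. In the MYC mouse its share was 90.3% in VP, 44.9% in DLP and 21.8% in AP. Without HOXB13 the sum was lowest in VP and highest in AP in both mice, with 59.7, 104.6 and 122.9 FPKM in VP, DLP and AP of the WT mouse and 18.4, 79.4 and 135.6 FPKM in those of the MYC mouse. Within this remainder the HoxD cluster took 20.1%, 25.4% and 44.7% in VP, DLP and AP of the WT mouse and 25.5%, 37.1% and 47.1% in those of the MYC mouse. Thus VP carried mostly HOXB13, and AP carried a broader mixture with HoxD as its largest part after HOXB13 was set aside.

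**Figure D1:**
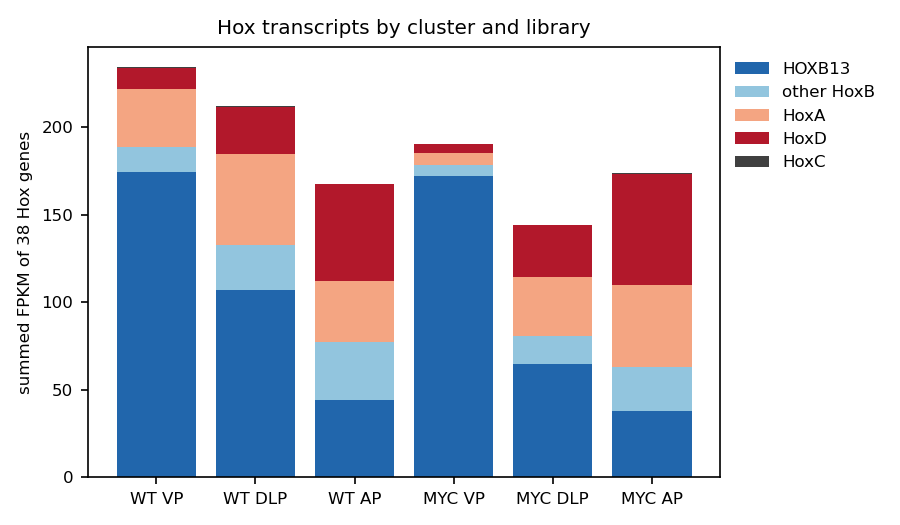
Summed FPKM of 38 Hox genes in each of 6 libraries, 1 per lobe and genotype, stacked by HOXB13, the other HoxB genes and the HoxA, HoxD and HoxC clusters. HOXB13 is the largest segment in VP of both mice (174.2 and 171.8 FPKM), and the HoxD segment is largest in AP.

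Posterior genes dominated every library. Groups 9 to 13, 16 of the 38 genes, held 93.0%, 83.8% and 81.5% of the summed FPKM in WT VP, WT DLP and WT AP and 97.5%, 83.9% and 80.3% in MYC VP, MYC DLP and MYC AP. Without HOXB13 the share was still between 67.2% and 74.8%. All 9 HoxC genes had a mean below 1 FPKM, and their highest value was 0.223 FPKM, for HOXC10 in WT DLP. HOXB1, HOXC12 and HOXC13 were listed at 0 in all 6 libraries. Posterior position alone was thus not accompanied by a high level, since the posterior members HOXC9 to HOXC13 were near or at 0 and HOXD12 had a mean of 0.327 FPKM between HOXD11 and HOXD13. The remaining genes below the mean of 1 FPKM were HOXA2, HOXA4, HOXA6, HOXD1, HOXD3 and HOXD9, and the highest single value among all 17 genes left out was 1.48 FPKM, for HOXD9 in MYC AP. The compared gene nearest the limit was HOXD4, with a mean of 1.03 FPKM, and the nearest gene left out was HOXD9, with 0.763 FPKM. The number of Hox genes at 1 FPKM or more was 14, 22 and 22 in VP, DLP and AP of the WT mouse and 6, 20 and 23 in those of the MYC mouse.

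**Figure D2:**
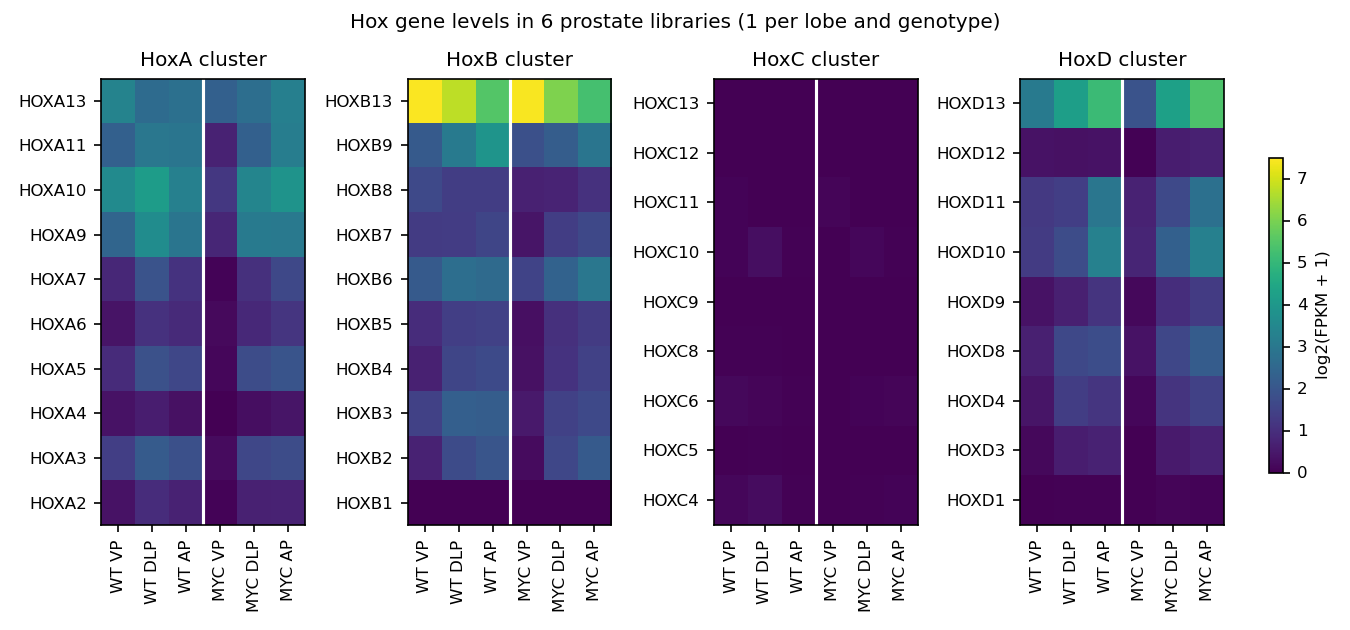
Levels of 38 Hox genes as log2(FPKM + 1), coloured from 0 to 7.5, with 1 panel per cluster, posterior genes at the top and 1 column per library. HOXB13 and HOXD13 are the brightest rows, the HoxC panel is dark throughout, and the MYC VP column is dark except for HOXB13 and a few posterior genes.

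HOXB13, the luminal partner of the androgen receptor, was the only compared gene with the order VP over DLP over AP in both mice. It lies at chr11:96194316-96196610 in GRCm38.p6. Its level was 174.2 FPKM in WT VP, 107.2 in WT DLP and 44.4 in WT AP, and 171.8, 64.8 and 37.9 FPKM in MYC VP, MYC DLP and MYC AP. It ranked 301 among all genes in WT VP and 1192 in WT AP. In VP the level was 3.92 times that in AP in the WT mouse (95% counting interval 3.76 to 4.10) and 4.53 times in the MYC mouse (4.37 to 4.70). These intervals are exact binomial ones from estimated reads and cover counting error only. Against DLP the VP level was 1.63 times as high in the WT mouse and 2.65 times as high in the MYC mouse. The sum of the 7 luminal markers was also highest in VP in each mouse, with 3 of 7 at least 2-fold higher in VP than in AP in both mice (6237 FPKM in WT VP, 4521 in WT AP, 5242 in MYC VP and 3021 in MYC AP). When every gene was taken relative to the luminal keratins KRT8 and KRT18, no Hox gene stood at least 2-fold higher in VP than in AP in both mice, and 20 of 21 stood lower, against 71.1% of all genes.

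Of the 5 compared HoxD genes, 4 showed the opposite order in both mice, HOXD8, HOXD10, HOXD11 and HOXD13, while HOXD4 was highest in DLP of the WT mouse. HOXD13, which patterns digits and the genital tract, lies at chr2:74668225-74671603 and was the Hox gene with the next highest mean after HOXB13. Its level was 7.54, 17.5 and 33.6 FPKM in VP, DLP and AP of the WT mouse and 2.79, 18.2 and 41.4 FPKM in those of the MYC mouse. The AP level was 4.46 times the VP level in the WT mouse (counting interval 4.11 to 4.83) and 14.8 times in the MYC mouse (13.1 to 16.9). Relative to HOXB13 in the same library, HOXD13 stood at 4.33% in WT VP, 16.3% in WT DLP and 75.7% in WT AP, and at 1.62%, 28.1% and 109.1% in MYC VP, MYC DLP and MYC AP. The balance of these paralogs therefore shifted from VP, where HOXB13 far exceeded HOXD13, to AP, where the levels were closer. In AP HOXD13 stood below HOXB13 in the WT mouse and slightly above it in the MYC mouse.

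HOXD10 and HOXD11, posterior genes with known roles in limb and kidney patterning, separated AP from both other lobes in the WT mouse. HOXD10 was at 1.47, 2.36 and 8.85 FPKM in VP, DLP and AP of the WT mouse and at 0.710, 3.92 and 8.60 FPKM in those of the MYC mouse. HOXD11 was at 1.39, 1.65 and 6.64 FPKM in the WT lobes and at 0.660, 2.15 and 5.81 FPKM in the MYC lobes, in the same order. Both genes were thus low in VP, alike in AP of both mice, and in DLP nearer to VP in the WT mouse. In AP the level was 6.03 times that in VP for HOXD10 (5.08 to 7.17) and 4.76 times for HOXD11 (4.11 to 5.54) in the WT mouse. HOXD8, a gene of the middle of the cluster, was at 0.568, 2.11 and 2.43 FPKM in the WT lobes and at 0.281, 2.01 and 3.52 FPKM in the MYC lobes. Its DLP level was close to AP in the WT mouse, unlike HOXD10 and HOXD11. HOXD10 (chr2:74684273-74695106) and HOXD11 (chr2:74679558-74687016) overlap in the RefSeq annotation, so reads in the shared stretch may be split between them. Over the 8 HoxD genes with at least 10 estimated reads in both WT VP and WT AP, the median AP to VP ratio of FPKM was 4.37, against 1.57 over 9 HoxA genes and 1.82 over 9 HoxB genes. HOXD12, between HOXD11 and HOXD13, was the HoxD gene with a ratio near 1, at 0.285 FPKM in WT VP and 0.286 FPKM in WT AP.

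**Figure D3:**
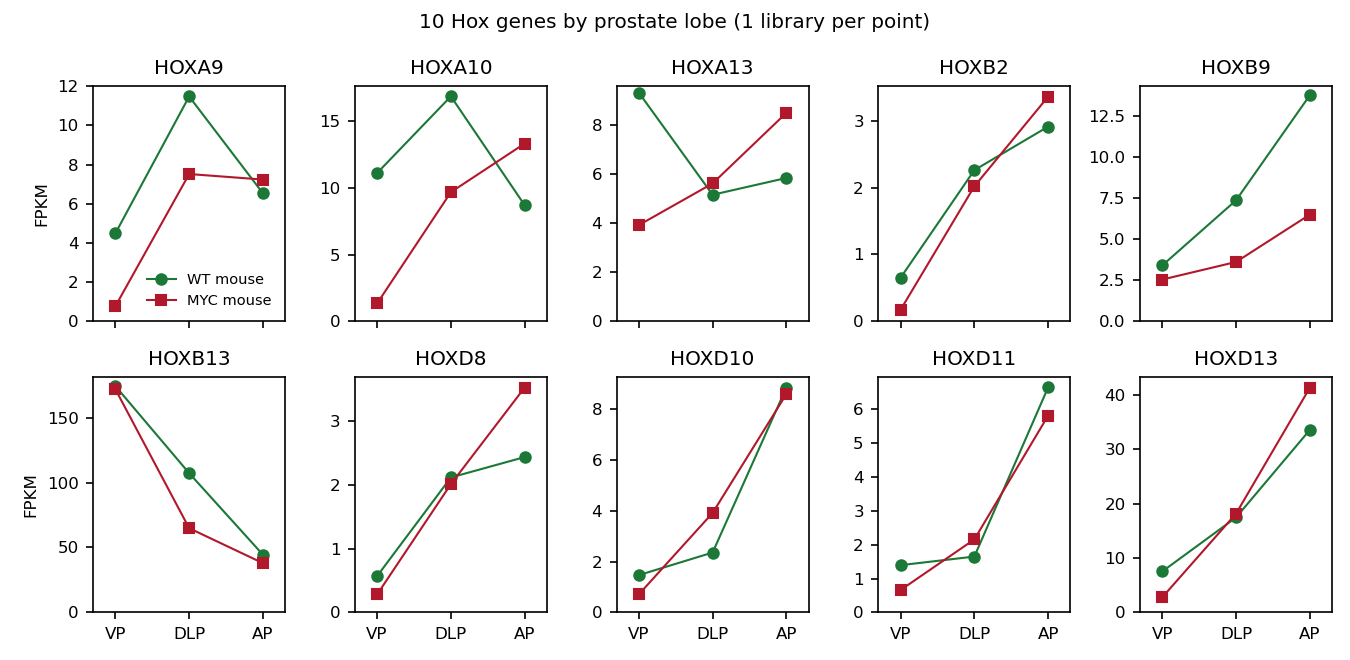
FPKM of 10 Hox genes in VP, DLP and AP of the WT mouse (circles) and the MYC mouse (squares), 1 library per point, each panel with its own axis from 0. HOXB13 is highest in VP and HOXB2, HOXB9, HOXD8, HOXD10, HOXD11 and HOXD13 are highest in AP in both mice, and HOXA10 and HOXA13 have different orders in the 2 mice.

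HOXB9 and HOXB2 followed the order of these 4 HoxD genes. HOXB9, the nearest expressed neighbour of HOXB13 in the cluster, was at 3.40, 7.36 and 13.8 FPKM in VP, DLP and AP of the WT mouse and at 2.54, 3.61 and 6.49 FPKM in those of the MYC mouse. The neighbours HOXB13 and HOXB9 thus had opposite orders across the lobes in both mice. HOXB2, known from hindbrain patterning, was at 0.650, 2.26 and 2.91 FPKM in the WT lobes and at 0.171, 2.02 and 3.36 FPKM in the MYC lobes. Its AP level was 4.48 times its VP level in the WT mouse (3.51 to 5.70) and 19.7 times in the MYC mouse (12.8 to 31.4), the latter over 22 estimated reads in MYC VP. HOXB2 overlaps the antisense transcript HOXB3OS.

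HoxA genes did not share 1 order. HOXA9 was highest in DLP of both mice, with 4.48, 11.5 and 6.53 FPKM in VP, DLP and AP of the WT mouse and 0.763, 7.52 and 7.23 FPKM in those of the MYC mouse, where DLP and AP differed by less than the counting error. HOXA10, which patterns the reproductive tract, was at 11.1, 16.9 and 8.70 FPKM in the WT lobes and at 1.33, 9.67 and 13.3 FPKM in the MYC lobes. HOXA13, which acts with HOXD13 in the genital tubercle, was at 9.31, 5.15 and 5.83 FPKM in the WT lobes and at 3.91, 5.61 and 8.48 FPKM in the MYC lobes. VP was thus the highest lobe for HOXA13 in the WT mouse and the lowest in the MYC mouse. HOXA11 was at 3.89, 6.90 and 6.56 FPKM in the WT lobes and at 0.642, 3.89 and 7.98 FPKM in the MYC lobes.

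**Figure D4:**
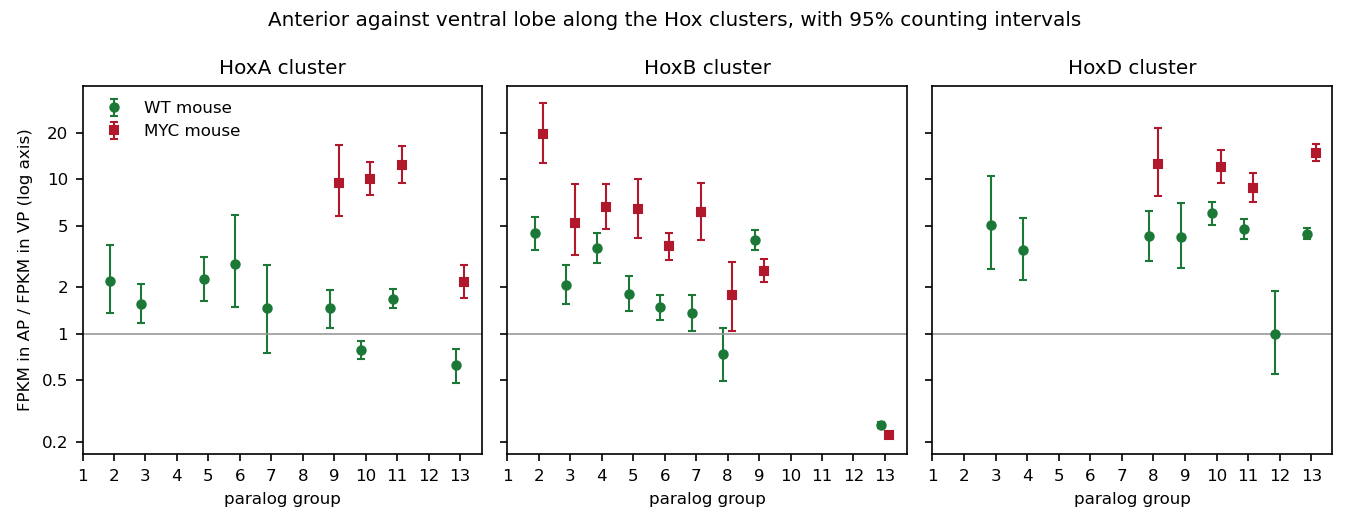
Ratio of FPKM in AP to FPKM in VP on a log axis against paralog group for HoxA, HoxB and HoxD genes with enough estimated reads, in the WT mouse (circles) and the MYC mouse (squares), with 95% counting intervals that do not include variation between mice. HoxD genes lie around a ratio of 4.37 in the WT mouse, HOXB13 lies at 0.255 and 0.221, and the ratios of most other genes are larger in the MYC mouse.

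Across the 21 compared genes, the order AP over DLP over VP occurred in 9 genes in the WT mouse and in 19 in the MYC mouse. It was common to both in 9 genes, HOXB2, HOXB4, HOXB5, HOXB7, HOXB9, HOXD8, HOXD10, HOXD11 and HOXD13. In the WT mouse the DLP and AP levels of HOXB4, HOXB5 and HOXD8 differed by less than the counting error. VP was the lowest lobe for 17 genes in the WT mouse and for 20 in the MYC mouse, HOXB13 being the exception there. The share of all genes in each order was not computed. Among all genes compared, 63.6% were lower in VP than in DLP and 50.8% lower in VP than in AP in the WT mouse. In the MYC mouse these shares were 55.6% and 51.1%. Comparisons used the log2 ratio of FPKM + 1, and a gene was counted when this differed by at least 2-fold. Between WT VP and WT AP, HOXB13 was higher in VP (1 of 21, against 7.89% of all genes compared) and 6 genes were lower, HOXB2, HOXB9, HOXD8, HOXD10, HOXD11 and HOXD13 (6 of 21, against 10.3%). All 7 also differed at least 2-fold the same way in the MYC mouse, where 3.6% of all genes were higher and 7.09% lower in VP in both mice. Between WT VP and WT DLP, 3 Hox genes were lower in VP, HOXA7, HOXA9 and HOXD13, against 6.29% of all genes, and none was higher, against 2.63%. In both mice this held for HOXA9 and HOXD13, against 4.5% of all genes lower and 1.34% higher. With median-of-ratios size factors no Hox gene differed at least 2-fold between VP and DLP, in the WT mouse or in both, and HOXA9 stood just under the threshold in the WT mouse, at a log2 ratio of −0.9997. With a pseudocount of 0.1, 11 genes were lower in VP in the WT mouse and 10 in both, against 11.2% and 8.8% of all genes. Between WT DLP and WT AP, HOXB13 was higher in DLP (background 3.85%) and HOXD10 and HOXD11 were lower (background 1.31%). Of these, HOXD11 was lower in DLP in both mice, against 0.485% of all genes lower and 0.704% higher.

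The lobes were also tested over both mice, with lobe and mouse as terms of 1 limma fit across the 12361 genes. The fit leaves 2 residual degrees of freedom and assumes a difference between mice that is the same in each lobe. This test was added after the data had been seen. Several Hox genes depart from the assumption, with a log2 ratio of MYC to WT of −1.17 in VP and 0.29 in AP for HOXD13. Such departures make up the residual of the fit, so its SE does not measure variation between animals of 1 genotype. Between VP and AP, HOXB13 was higher in VP (1 of 21, against 6.67% of all genes at an adjusted p under 0.05) and 8 genes were lower (8 of 21, against 9.97%). The 8 were the HOXB2, HOXB9, HOXD8, HOXD10, HOXD11 and HOXD13 named above, and HOXB3 and HOXB4. In limma the log2 difference of HOXB13 between VP and AP was 2.05 (SE 0.233, adjusted p = 0.0196) and that of HOXD13 was −2.75 (SE 0.389, adjusted p = 0.0235). HOXB4, with a difference of −1.05 (SE 0.212, adjusted p = 0.0406 in limma), had 0.622, 1.94 and 2.22 FPKM in the WT lobes and 0.258, 1.14 and 1.71 FPKM in the MYC lobes. Between VP and DLP no Hox gene passed in limma, against 0.291% of all genes higher and 0.599% lower, and 12 of 21 had an unadjusted p under 0.05, as had 24.5% of all genes. Between DLP and AP none passed, against 0.0243% of all genes in each direction, and 5 of 21 had an unadjusted p under 0.05, as had 10.8% of all genes.

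The median log2 ratio of the 21 genes between WT VP and WT AP was −0.63, against −0.01 over all genes compared, and between WT VP and WT DLP it was −0.76 against −0.13. Markers of several other cell types moved the same way. All 10 endothelial markers were at least 2-fold lower in VP than in AP in both mice, with a median of −2.21 in the WT mouse, and their sum was 44.3 FPKM in WT VP, 206.7 in WT DLP and 291.5 in WT AP. Of the basal markers 7 of 9 were lower in WT VP than in WT AP (median −1.28, 5 of 9 in both mice), and of the hematopoietic markers 9 of 12 (median −1.52, none in both mice). Of the fibroblast markers 5 of 12 were lower (median −0.91), the same number in both mice. Their sum was 1869 FPKM in WT VP, 2944 in WT DLP and 2626 in WT AP, and no marker of the list was at 0 in any library. Smooth muscle markers had medians of 0.39 between WT VP and WT AP, −0.35 between WT VP and WT DLP and −0.94 between MYC VP and MYC AP, where 5 of 10 were lower in VP. Taken relative to the fibroblast markers, 3 Hox genes were higher and none was lower in VP than in AP in both mice, against 38.2% and 0.178% of all genes. Relative to the smooth muscle markers, an alternative chosen after the data had been seen, 1 was higher and 4 were lower, against 4.05% and 4.13%. The part of cell makeup in the order of the lobes was not tested further.

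Between genotypes, Hox genes were lower in VP of the MYC mouse. All 21 compared genes had a log2 ratio of MYC to WT below 0 there, as did 46.4% of all genes, with a median of −0.76 against 0.04 over all genes. At least 2-fold lower in MYC VP were HOXA3, HOXA9, HOXA10, HOXA11, HOXA13 and HOXD13 (6 of 21, against 5.95% of all genes), and none was higher, against 6.88%. HOXA10 (chr6:52231197-52240854) stood at 11.1 FPKM in WT and 1.33 FPKM in MYC and so was 8.34-fold lower in MYC VP (counting interval 6.59 to 10.8), with a log2 ratio of −2.38. HOXA11 was 6.06-fold lower (4.60 to 8.12) and HOXA9 5.88-fold lower (3.55 to 10.5). HOXA3 stood at 1.64 and 0.166 FPKM, the latter over 9 estimated reads. On the log2 scale HOXA10, HOXA9, HOXA11 and HOXA3 lay farthest below their WT level. HOXD13 was 2.71-fold lower (2.35 to 3.12) and HOXA13 2.38-fold lower (1.86 to 3.04). HOXB13 stood apart, with 174.2 FPKM in the WT mouse and 171.8 FPKM in the MYC mouse, a MYC to WT ratio of 0.986 (0.964 to 1.01). The pseudocount of 1 holds the ratios of low genes close to 0, and with a pseudocount of 0.1 the count in VP was 15 lower and none higher, against 10.3% and 10.1% of all genes.

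Markers of other cell types also differed in MYC VP, some lower and some higher. The 12 fibroblast markers summed to 1869 FPKM in VP of the WT mouse and 457.4 FPKM in VP of the MYC mouse, with 9 of 12 at least 2-fold lower and a median log2 ratio of −1.65. The 10 smooth muscle markers summed to 431.4 and 261.7 FPKM, with 2 of 10 at least 2-fold lower and a median of −0.81. The 12 hematopoietic markers were on the other side, with sums of 152.0 and 445.8 FPKM, 9 of 12 at least 2-fold higher in MYC VP and a median of 1.25. The 9 basal markers summed to 811.3 and 548.0 FPKM, with 1 of 9, TRP63, at least 2-fold lower and a median of −0.59. The 10 endothelial markers summed to 44.3 and 50.9 FPKM, with none at least 2-fold different and a median of 0.09. Relative to the fibroblast markers no Hox gene was at least 2-fold lower in MYC VP and 6 were higher, where 82.2% of all genes were higher. That scale adds 1.504 to the log2 ratio of every gene, so that 18 of the 21 Hox genes stood above 0 on it, HOXA13 and HOXD13 at 0.44 and 0.33, and HOXA9, HOXA10 and HOXA11 stood below. Relative to the smooth muscle markers, 1 Hox gene was lower and none higher in VP, against 1.48% and 30.1% of all genes, and in DLP 2 were higher, against 39.7% of all genes. Relative to KRT8 and KRT18, 3 Hox genes were lower in MYC VP and 3 in MYC DLP, against 3.28% and 6.03% of all genes. The part of cell makeup in the lower Hox levels of MYC VP was not tested further.

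In DLP and AP no compared Hox gene differed at least 2-fold between genotypes on the log2 scale. With a pseudocount of 0.1, 4 genes were lower in MYC DLP and 1 in MYC AP, against 5.11% and 0.922% of all genes. With the pseudocount of 1, in DLP 6.46% of all genes were higher and 3.39% lower in MYC, and in AP 2.05% were higher and 0.599% lower. In DLP the median log2 ratio was −0.36 against 0.03 over all genes, with 16 of 21 genes below 0, as were 46.2% of all genes. HOXB13 stood at 107.2 FPKM in WT and 64.8 FPKM in MYC, 1.65-fold lower (1.60 to 1.71). HOXD10 was on the other side, with 2.36 FPKM in WT and 3.92 FPKM in MYC. In AP the median log2 ratio was 0.13, equal to that over all genes, and 12 of 21 genes were above 0, as were 66.4% of all genes. The gene nearest to 2-fold in AP was HOXB9, with 13.8 FPKM in WT and 6.49 FPKM in MYC and a log2 ratio of −0.98, and the ratio of the FPKM themselves was 2.12 (1.88 to 2.39). The fibroblast markers summed to 2944 and 1421 FPKM in WT and MYC DLP, where 5 of 12 were at least 2-fold lower and 2 higher, and to 2626 and 2953 FPKM in WT and MYC AP, where 3 of 12 were at least 2-fold higher and none lower. The smooth muscle markers summed to 525.1 and 309.7 FPKM in WT and MYC DLP, with 3 of 10 at least 2-fold lower and a median of −0.83, and to 343.7 and 452.7 FPKM in WT and MYC AP, with a median of 0.55. The hematopoietic markers summed to 294.2 FPKM in DLP of the WT and 1227 FPKM in that of the MYC mouse, with 12 of 12 at least 2-fold higher and a median of 1.78. The part of these markers in the Hox levels of DLP and AP was not tested.

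**Figure D5:**
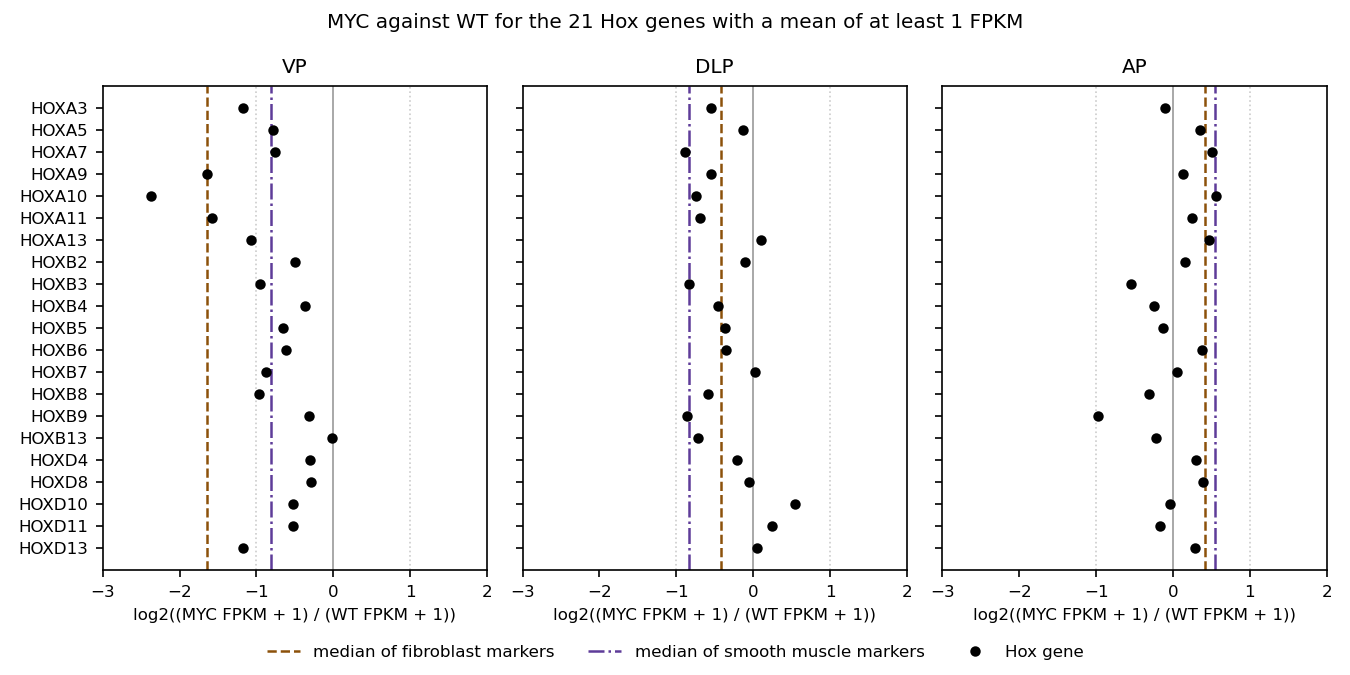
Log2 ratio of MYC to WT, from FPKM + 1, of 21 Hox genes in VP, DLP and AP, 1 library per genotype, with the median of the fibroblast markers (dashed) and of the smooth muscle markers (dash-dotted) and dotted lines at 2-fold. All 21 genes lie below 0 in VP, with HOXA10 at −2.38 and HOXB13 at −0.02, and none passes 2-fold in DLP or AP.

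Genes that work with or beside Hox genes were counted on the same scale. Of the TALE cofactors, 10 of 11 were compared, and none was at least 2-fold higher in MYC VP. MEIS2 was lower there, at 6.38 FPKM in VP of the WT mouse and 1.61 FPKM in that of the MYC mouse. In both mice 1 cofactor, TGIF2, was lower in VP than in AP and none was higher, against 7.09% and 3.6% of all genes. Of the noncoding RNAs of the Hox clusters, 2 of 11 were compared. HOXA11OS, transcribed opposite HOXA11, was at 61.3, 62.7 and 25.2 FPKM in VP, DLP and AP of the WT mouse and at 6.85, 27.0 and 23.4 FPKM in those of the MYC mouse. Its level exceeded that of HOXA11 in all 6 libraries, and the loci overlap, so that the reads of the pair may not be fully separated. HOTAIRM1, at the other end of the HoxA cluster, was at 3.10, 2.91 and 1.34 FPKM in VP, DLP and AP of the WT mouse and at 0.417, 3.45 and 3.76 FPKM in those of the MYC mouse. It was thus at least 2-fold lower in MYC VP, as were 5.95% of all genes, and at least 2-fold higher in MYC AP (log2 ratio 1.02), as were 2.05%. The 6 microRNA genes of the clusters that the table lists were at 0 in every library, which were made from poly(A) RNA.

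Genes that flank the clusters were compared in 9 of 13 cases and none differed at least 2-fold between genotypes in VP. Of the flanking genes, EVX2, the homeobox gene next to HOXD13, was lower in VP than in AP in both mice, at 0.303, 1.16 and 2.49 FPKM in the WT lobes and 0.0854, 0.483 and 2.85 FPKM in the MYC lobes. HIBADH, an enzyme of valine breakdown next to the HoxA cluster, was higher in VP than in AP in both mice, at 57.9 and 17.5 FPKM in the WT mouse and 71.7 and 27.2 FPKM in the MYC mouse. Of the Cdx and retinoic acid genes, which control Hox genes in the embryo, 15 of 20 were compared, with 1 higher and 4 lower in MYC VP, against 6.88% and 5.95% of all genes. CDX1 was listed at 0 in all libraries, and CDX2 and CDX4 did not exceed 0.166 FPKM. In both mice RXRG and CRABP1 were higher and STRA6, the retinol transporter, was lower in VP than in AP. STRA6 was at 3.04, 13.2 and 16.7 FPKM in the WT lobes and at 0.892, 20.1 and 17.0 FPKM in the MYC lobes. Of the genes of urogenital sinus patterning, 18 of 30 were compared. In both mice SHH, GLI1, BMP4, TBX2, ISL1 and HAND2 were lower in VP than in AP (6 of 18). Between genotypes 6 of 18 were lower in MYC VP and none was higher, against the same 5.95% and 6.88% of all genes.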

How the data were processed

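Bulk RNA-seq of 6 mouse prostate libraries, 1 per lobe and genotype, was taken from 1 deposited table. The authors mapped single-end stranded poly(A) reads with STAR and quantified genes with Cufflinks, and the deposited values are FPKM, scaled per library and per transcript length (build mm10 per the labels). The strand setting of Cufflinks is not given in the sources used here. The Hox genes and the gene lists were chosen with earlier results of these data known. One further Hox symbol and some genes of the lists are not reported here.

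From these values, log2((FPKM + 1) ratios) were computed, and genes whose mean reached 1 FPKM were compared, with a 2-fold threshold. Genotypes were not tested, since each is 1 mouse. Lobes were tested with limma 3.58.1 on log2(FPKM + 1), with lobe and mouse as terms and Benjamini-Hochberg adjustment over all genes compared. The titles give the same animal to the 3 lobes of a genotype, which pairs them. Depth was recovered from the steps of single-exon genes longer than 600 bases at under 0.3 FPKM, where between 51.5% and 63.6% of the values lay within 0.1 of a whole read. Reads per gene were estimated from FPKM, depth and the median GENCODE transcript length less 200 bases (lengths found for 90.0% of genes), and gave exact 95% Clopper-Pearson intervals of ratios where both libraries had at least 10 reads. Such intervals cover counting error only. They rest on the median length for genes with several transcripts, HOXA9, HOXA10, HOXA11 and HOXA13 among them. Coordinates and promoters are from RefSeq on GRCm38.p6, matched by symbol.

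Full values are given for HOXB13, for Hox genes whose mean reached 5 FPKM, and for those past 2-fold alike in both mice in any pair of lobes. Other genes were summarised, except HOXA11, HOXB4, HOXD12, the genes past 2-fold between genotypes and the genes from the lists, which were added after their values were seen. Alternatives were median-of-ratios size factors, equal sums of FPKM, a pseudocount of 0.1, no filter or a minimum mean of 10 FPKM, a 4-fold threshold, and ratios to KRT8 and KRT18 or to fibroblast markers. The limma fit, ratios to smooth muscle markers and ratios without a pseudocount were added after the data had been seen. In simulated libraries with 200 genes changed, all 200 were recovered in each lobe between genotypes, with at most 3 of 12161 unchanged genes called. No gene was set to differ between lobes alike in both mice, so recovery of such differences was not tested. Variation between animals of 1 genotype cannot be estimated here, since each genotype is 1 mouse. The simulated counts therefore check the calculation only and give no error rate for the Hox genes called. Scripts ran in Python 3.11.15 with pandas 2.3.3 and numpy 2.4.6, intervals came from scipy 1.17.1, and figures from matplotlib 3.10.9.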

Additional observations from a re-analysis of the deposited data

Results flagged for a closer look

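Several Hox genes lay on opposite sides of 0 in 2 lobes when MYC was set against WT, with the log2 ratios at least 1 apart. None of these differences was tested, since each rests on 4 libraries, 1 per lobe and genotype. The largest was that of HOXA10, lower in MYC in VP (−2.38) and higher in AP (0.56), a difference of −2.94, and its difference between DLP (−0.74) and AP was −1.30. VP and AP differed by −1.82 for HOXA11 (−1.57 and 0.25), by −1.54 for HOXA13 (−1.07 and 0.47) and by −1.47 for HOXD13 (−1.17 and 0.29). They differed by −1.27 for HOXA7 (−0.76 and 0.51) and by −1.14 for HOXA5 (−0.79 and 0.35). DLP and AP differed by −1.40 for HOXA7 (−0.89 in DLP). VP and DLP differed by −1.08 for HOXD10 (−0.53 and 0.55). The sum of the fibroblast markers in MYC was 457.4 FPKM in VP, 1421 in DLP and 2953 in AP, and its part in these differences was not tested.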

How the results depend on the processing

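With the mouse as a replicate block, the limma fit over both mice passed 9 Hox genes for VP-AP, 0 for VP-DLP and 0 for DLP-AP, in place of the 7, 2 and 1 at least 2-fold different alike in both mice. A fit without 1 of the mice leaves no residual degrees of freedom. Counts below are of Hox genes at least 2-fold different, and the cause of a change was not tested except where fewer genes were compared. A pseudocount of 0.1 gave, between genotypes, 15 genes for VP, 4 for DLP and 1 for AP, all lower in MYC, against 10.3%, 5.11% and 0.922% of all genes. It gave 11 for WT VP-DLP, all lower (11.2% of all genes), and 11 for WT VP-AP, 1 higher and 10 lower (10.4% and 14.5%), and, alike in both mice, 10 lower for VP-DLP (8.8%), 11 for VP-AP, 1 higher and 10 lower (5.02% and 10.1%), and 2 lower for DLP-AP (0.825%). Without a pseudocount, over 17 to 27 genes with at least 10 reads, the counts between genotypes were 14 for VP and 4 for DLP, all lower in MYC (10.7% and 5.96% of all genes), and 2 for AP, 1 higher and 1 lower (4.17% and 1.41%). Those between WT lobes were 15 lower for VP-DLP (13.7%), 15 for VP-AP, 1 higher and 14 lower (9.43% and 17.2%), and 5 for DLP-AP, 2 higher and 3 lower (5.47% and 3.91%), and those in both mice were 6 lower for VP-DLP (9.31%) and 2 lower for DLP-AP (1.1%). Size factors left 0 for VP-DLP in the WT mouse (4.04% of all genes higher and 4.3% lower) and 0 in both mice (2.07% and 2.96%). They gave 2 lower for DLP-AP in both mice, against 0.584% of all genes, and 1 lower in MYC AP, against 1.09%. Equal sums gave 5 for WT DLP-AP, 1 higher and 4 lower, against 2.63% and 2.25% of all genes. They gave 3 lower for DLP-AP in both mice, against 0.816%, and 1 lower in MYC AP, against 0.646%. A 4-fold threshold left 1 gene lower in MYC VP (HOXA10), against 0.922% of all genes. It left 1 lower for VP-AP (HOXD13) in the WT mouse and in both, against 1.61% and 0.922%. It left 0 for VP-DLP and DLP-AP in either. In the WT mouse 0.688% of all genes were higher and 0.744% lower for VP-DLP, and 0.704% and 0.227% for DLP-AP. A minimum mean of 10 FPKM kept 3 genes, of which 2 were lower in MYC VP, against 7.2% of all genes. For VP-AP 1 was higher and 1 lower, in the WT mouse (9.89% and 9.74% of all genes) and in both (4.29% and 6.47%). For VP-DLP 1 was lower in the WT mouse (6.66%) and in both (5.17%). For DLP-AP 1 was higher in the WT mouse (HOXB13, against 4.38%) and 0 differed in both (0.821% higher and 0.317% lower).

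Relative to KRT8 and KRT18, 3 genes were lower between genotypes in VP and 3 in DLP, against 3.28% and 6.03% of all genes. For VP-DLP 19 were lower and for VP-AP 20, in the WT mouse and in both. Of all genes 92.8% and 84.1% were lower in the WT mouse, and 60.3% and 71.1% in both. For DLP-AP 2 were lower in both mice, against 0.615% of all genes. Relative to fibroblast markers, a scale that moves all genes alike, the direction turned. On it 6 were higher in MYC VP, as were 82.2% of all genes. For VP-DLP 3 were higher in the WT mouse and in both (21.7% and 21.1% of all genes). For WT VP-AP 6 differed, 4 higher, against 38.4% of all genes, and 2 lower, against 2.1%. Alike in both mice 3 were higher for VP-AP, against 38.2% of all genes, and 1 for DLP-AP, against 3.16%. In MYC AP 2 were lower, against 8.47% of all genes. Relative to smooth muscle markers, 1 was lower in MYC VP (1.48% of all genes), 2 were higher in MYC DLP (39.7%) and 1 was lower in MYC AP (3.38%). On that scale VP-DLP turned to 2 higher in the WT mouse and 1 in both, against 6.51% and 2.86% of all genes. DLP-AP in both had 0, against 0.769% of all genes higher and 0.688% lower. HOXA13 and HOXD13 reversed between genotypes in VP relative to fibroblast markers (0.44 and 0.33).

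The share of groups 9 to 13 without HOXB13 was 72.5%, 67.2% and 74.8% in VP, DLP and AP of the WT mouse and 73.9%, 70.7% and 74.8% in those of the MYC mouse, and of the summed log2(FPKM + 1) it was 65.3%, 56.1%, 59.6%, 77.6%, 60.5% and 58.9%. Of 60 log2 ratios of the 10 named genes, 58 kept their sign with size factors, 60 with equal sums, 60 with a pseudocount of 0.1, 51 relative to keratins, 40 relative to fibroblast and 43 relative to smooth muscle markers. Size factors moved the median of all genes by up to 0.17 and equal sums by up to −0.19 in the 6 main comparisons. Depth limits the lowest genes most in WT AP, and a pseudocount of 1 makes log2 ratios of genes near 1 FPKM smaller than their FPKM ratios.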
